A study of Mus musculus with 19 samples.

Results

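The megakaryocyte and platelet genes Pf4, Ppbp, Gp1ba, Gp1bb, Gp5, Gp9, Vwf, Treml1 and Nfe2 were followed across 17 mouse RNA-seq libraries in 7 groups. They were taken by name from a table of 23458 genes, and all 9 were found. All 9 passed the filter on low counts, which was applied to all 17 libraries together. Pf4 (platelet factor 4, also called Cxcl4) and Ppbp (pro-platelet basic protein) are chemokines stored in platelet alpha granules. Gp1ba, Gp1bb, Gp9 and Gp5 encode the subunits of the GPIb-IX-V complex, the platelet receptor for von Willebrand factor, which Vwf encodes. Treml1 encodes a receptor of the alpha granule membrane that reaches the surface of activated platelets. Nfe2 encodes the p45 subunit of NF-E2, a transcription factor needed in mice for platelet release and also present in erythroid and myeloid cells.

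Megakaryocytes are the marrow cells that shed platelets. Their genes come on under GATA1 with its cofactor FOG1, ETS-family factors such as FLI1, and, late in maturation, NF-E2. Vwf is also made by endothelial cells and is used as a mark of platelet-biased stem cells in mice, so neither Vwf nor Nfe2 is specific to megakaryocytes. How specific the other genes are in these libraries was not tested.

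The study compared leukemias that carry FLT3-ITD, an activating internal tandem duplication in a receptor tyrosine kinase gene, with and without Dnmt3a, a de novo DNA methyltransferase gene. All mice were C57BL/6, and their ages are not used here. In the retroviral model, Mx1-cre+ donor marrow was transduced with an MSCV retrovirus and transplanted into lethally irradiated recipients, from which CD4+CD8+ donor cells were isolated by sorting. KO-ITD leukemias (n = 4) were Dnmt3a f/f with MSCV FLT3-ITD-GFP, KO-GFP thymocytes (n = 2) were Dnmt3a f/f with MSCV GFP, WT-ITD leukemias (n = 3) were Dnmt3a+/+ with FLT3-ITD-GFP, and WT-GFP thymocytes (n = 2) were Dnmt3a+/+ with GFP. In the knock-in model, every group carried Flt3+/ITD, and whole marrow was taken with no sorting step. Its leukemias were ER-cre+ with Dnmt3a f/f (n = 1) or Dnmt3a f/+ (n = 2), and the pre-leukemic marrow (n = 3) was ER-cre- with Dnmt3a f/f. Mx1-cre is an interferon-inducible Cre active in blood cells, and the MSCV promoter, not the Flt3 promoter, drives the retroviral duplication. All GFP libraries came from thymus, KO-ITD replicates 1 and 2 and WT-ITD replicate 2 from marrow, and the other retroviral leukemias from thymus. KO-ITD donor marrow was enriched for Sca-1 and KO-GFP donor marrow for ckit, so that this step and the duplication cannot be told apart in that comparison. WT-ITD donor marrow was enriched for Sca-1 in replicate 1, for ckit in replicate 2 and was whole marrow in replicate 3, so donor preparation also differed between KO-ITD and WT-ITD leukemias, and its part was not tested. The labels call the replicates biological without tying each to an animal, so the p-values reflect variation among these samples alone, which may be technical.

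Libraries held 4933886 to 25331906 estimated fragments. Levels are given as CPM, counts per 1000000 of the scaled library size. Dnmt3a was at 53.0 to 127 CPM in KO-ITD and 144 to 207 CPM in KO-GFP, against 180.2 to 238 CPM in WT-ITD and 250.1 to 257 CPM in WT-GFP libraries, counted over the whole gene, so reads outside the deleted part were included. In the knock-in model it was at 36.5 CPM in the f/f leukemia and at 55.0 and 47.4 CPM in the f/+ leukemias, against 129.6 to 153 CPM in pre-leukemic marrow. The 10 genes listed for double-positive T cells summed to 2763 to 13693 CPM in the sorted retroviral libraries and to 37.1 to 118 CPM in unsorted knock-in marrow. KO-ITD replicate 4 stood apart within its group: the 13 monocyte and macrophage markers summed to 5502 CPM there and to 187 to 411 CPM in the other KO-ITD libraries.

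On mm9, Pf4 lies at chr5:91201461-91202409 and Ppbp at chr5:91197544-91199086, both on the plus strand and 2374 bases apart, with 588 and 1080 exon bases. Gp1ba lies at chr11:70452624-70455557 on the plus strand, Gp5 at chr16:30307771-30310867 on the minus strand, Gp9 at chr6:87728130-87729756 on the plus strand, Vwf at chr6:125502966-125636697 on the plus strand with 52 exons, Treml1 at chr17:48499241-48506471 on the plus strand and Nfe2 at chr15:103078649-103085847 on the minus strand. Gp1bb lies at chr16:18620412-18622496 on the minus strand, and 593 of its bases, chr16:18621904-18622496, also belong to exons of Sept5, a septin gene on the same strand. Fragments in those 593 bases cannot be assigned to either gene by position or strand.

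Promoter windows of 250 bases upstream of the annotated start were matched by symbol in RefSeq (build GRCm38.p6) for 7 of the 9 genes, without Vwf and Nfe2. They were searched on both strands for GATA words (the letters AGATAA or AGATAG or TGATAA or TGATAG), ETS words (AGGAAG or CGGAAG) and the letters TGACTCA of the NF-E2 core. The GATA words were in 3 of 7 windows (Gp1ba, Gp1bb and Gp5) and in 26.5% of all 32851 promoter windows, and ETS words were in 5 of 7 and in 39.2%. GATA and ETS words together were in 3 of 7 windows and in 9.2% of all windows, and TGACTCA was in 0 of 7 and in 4.5%. The window of Gp1bb, with 1 GATA word and 1 ETS word, is not printed. The windows below are those of the receptor subunits Gp1ba and Gp5, which hold 3 GATA words and 1 ETS word each. With them are the neighbours Pf4, with 1 ETS word, and Ppbp, with none. Capitals mark the matches on either strand, none of which overlaps another. The windows are chr11:70638872-70639121 plus for Gp1ba, chr16:30310782-30311031 minus for Gp5, chr5:90772185-90772434 plus for Pf4 and chr5:90768268-90768517 plus for Ppbp.
Gp1ba: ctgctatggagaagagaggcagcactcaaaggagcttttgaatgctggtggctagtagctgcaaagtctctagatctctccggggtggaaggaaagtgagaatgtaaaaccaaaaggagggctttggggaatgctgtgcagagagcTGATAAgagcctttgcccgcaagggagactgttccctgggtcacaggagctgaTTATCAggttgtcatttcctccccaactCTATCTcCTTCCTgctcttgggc
Gp5: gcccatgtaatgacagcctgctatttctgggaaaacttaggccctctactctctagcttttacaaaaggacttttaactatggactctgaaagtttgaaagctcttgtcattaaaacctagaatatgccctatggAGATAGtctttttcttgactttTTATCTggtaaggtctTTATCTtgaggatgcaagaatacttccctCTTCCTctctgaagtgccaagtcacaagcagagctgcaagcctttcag
Pf4: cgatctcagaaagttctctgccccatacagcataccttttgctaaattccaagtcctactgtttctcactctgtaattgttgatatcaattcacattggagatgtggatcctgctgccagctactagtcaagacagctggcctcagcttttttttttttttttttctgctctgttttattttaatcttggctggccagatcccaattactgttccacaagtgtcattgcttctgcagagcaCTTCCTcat
Ppbp: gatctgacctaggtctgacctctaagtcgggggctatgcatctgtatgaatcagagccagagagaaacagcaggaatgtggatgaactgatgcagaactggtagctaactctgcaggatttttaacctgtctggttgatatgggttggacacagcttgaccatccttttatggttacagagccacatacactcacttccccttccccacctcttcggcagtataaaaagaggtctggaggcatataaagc
A match describes the letters of a window and shows neither a bound site nor a cause.

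All 9 genes were read in every pre-leukemic marrow library, at 0.754 CPM or more, and most were near 0 in sorted GFP thymocytes. Pre-leukemic marrow was set against the 4 GFP thymocyte libraries to see where the genes are read, and organ, sort and model cannot be told apart there. All 9 were higher in pre-leukemic marrow in edgeR (quasi-likelihood test, Benjamini-Hochberg adjustment), with adjusted p from 5.91e-05 for Vwf to 0.0093 for Ppbp. Of the 15508 genes tested, 22.7% were called higher in that comparison. Treml1 had 179 counts over the 3 pre-leukemic libraries and none over the 4 GFP libraries, at least 147-fold higher when 0 is replaced by the limit of 3 counts for the whole group. Where the lower side held 1 to 3 counts, the ratio of counts is given with its 95% counting interval: 40.8 for Ppbp (10.4 to 351), 158 for Gp1bb (42.9 to 1320) and 408 for Gp9 (112 to 3381). The log2 fold changes of the others were 10.54 for Vwf (SE 1.26), 7.75 for Pf4 (SE 1.52), 7.49 for Nfe2 (SE 0.97), 6.09 for Gp5 (SE 0.75) and 3.63 for Gp1ba (SE 0.72). Gp1ba had the smallest log2 fold change of the 9 and was at 0.81 to 1.24 CPM in the 4 GFP libraries.

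Levels between genes were compared per kilobase of exon. In pre-leukemic marrow Nfe2 was highest at 149 CPM per kb, followed by Pf4 at 43.4, Vwf at 19.2, Gp9 at 11.5, Gp5 at 10.1, Gp1ba at 4.91, Treml1 at 3.01, Gp1bb at 1.78 and Ppbp at 0.822 CPM per kb. In the f/f leukemia Nfe2 was again first at 153 CPM per kb, but Ppbp was second at 36.9 CPM per kb, ahead of Pf4 at 26.8 CPM per kb. The subunits of the receptor complex were not read at equal levels in pre-leukemic marrow: Gp1bb was lowest and Gp9 highest. In the GFP thymocytes Nfe2 and Gp1ba led, at 0.845 and 0.396 CPM per kb.

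**Figure D1:**
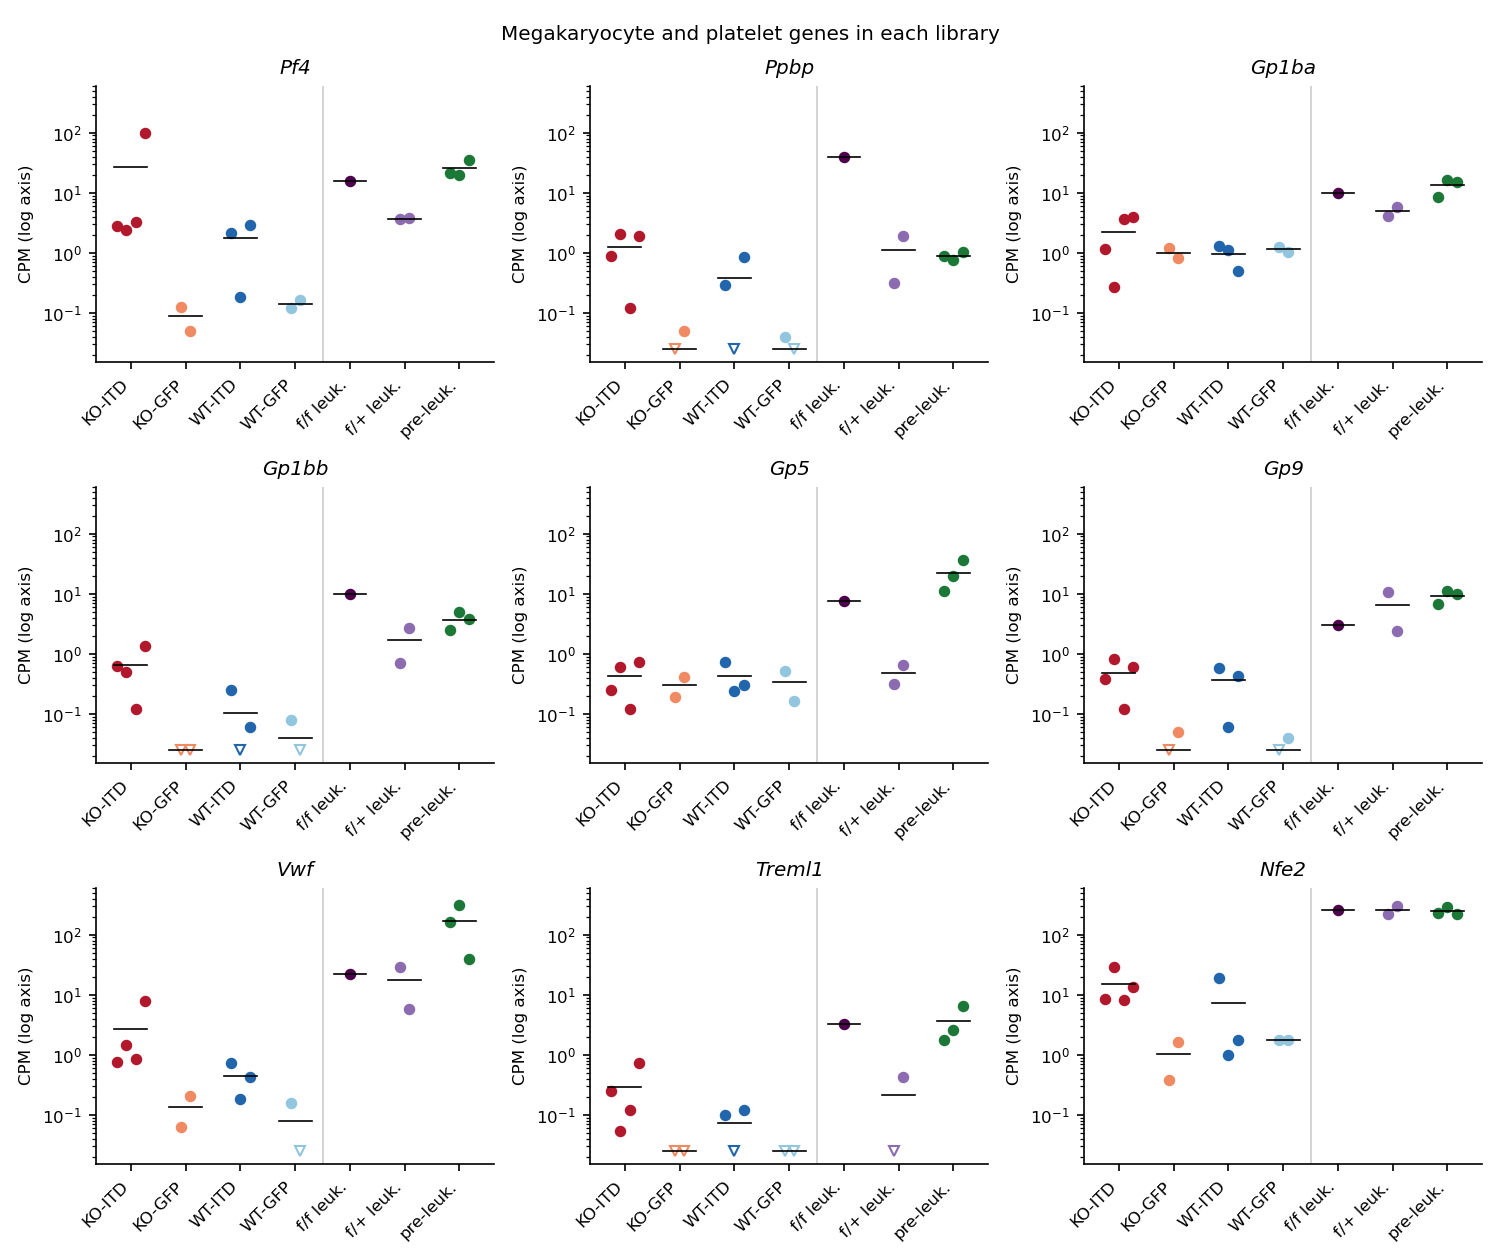
Level of each of the 9 genes in CPM (log axis) in every library of the 7 groups, with retroviral groups left and knock-in groups right of the grey line; points are libraries, black lines are group means, and open triangles mark libraries with 0 counts, with means under that height drawn at it. KO-ITD replicate 4 is the single high Pf4 point at 98.7 CPM, and the f/f leukemia is the single high Ppbp point at 39.9 CPM.

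Pf4 and Ppbp rose in KO-ITD leukemias relative to KO-GFP thymocytes. Across KO-ITD replicates 1 to 4, Pf4 read 2.8, 2.42, 3.25 and 98.7 CPM, against 0.128 and 0.0506 CPM in the KO-GFP replicates. The groups did not overlap, and replicate 4 alone held most of the Pf4 counts of its group. The count ratio was 251 (95% counting interval 85.6 to 1219; adjusted p = 0.0209 in edgeR), and without replicate 4 it was 31.9 (10.6 to 158; adjusted p = 0.00805 in edgeR). Ppbp was at 0.891, 2.09, 0.12 and 1.94 CPM in KO-ITD leukemias, against 0 and 0.0506 CPM in KO-GFP thymocytes. The count ratio of Ppbp was 51.5 (8.91 to 2067; adjusted p = 0.0491 in edgeR), and without KO-ITD replicate 4 it was 47.4 (8.09 to 1912) and missed the threshold at an adjusted p of 0.0612 in edgeR. In bulk samples such as these, fewer cells of a type and less RNA per cell cannot be told apart.

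Of the receptor complex, Gp1bb was called higher, while Gp9, Gp1ba and Gp5 did not pass the test. From KO-ITD and KO-GFP libraries alone, Gp1bb, Gp9 and Gp5 did not pass the filter on low counts. The Gp1bb call rests on 26 counts against 0. Gp1bb was at 0.636, 0.495, 0.12 and 1.33 CPM in KO-ITD leukemias, against 0 counts in both KO-GFP libraries. That is at least 7.2-fold higher (adjusted p = 0.0324 in edgeR), and at least 5.15-fold without replicate 4. Sept5, which shares bases with Gp1bb, was at 0.722 to 2.93 CPM in KO-ITD leukemias and at 0.447 and 0.81 CPM in KO-GFP thymocytes, and the part of shared fragments in the Gp1bb result was not tested. Gp9 was at 0.382, 0.824, 0.12 and 0.607 CPM in KO-ITD leukemias, against 0 and 0.0506 CPM in KO-GFP thymocytes, a count ratio of 19.9 (3.25 to 819.9; adjusted p = 0.0547 in edgeR). Gp1ba was at 1.15, 0.275, 3.61 and 4.00 CPM in KO-ITD leukemias, against 1.21 and 0.81 CPM in KO-GFP thymocytes, and Gp5 was at 0.255, 0.605, 0.12 and 0.728 CPM, against 0.192 and 0.405 CPM. For these genes the groups overlapped, with log2 fold changes of 1.14 for Gp1ba (SE 0.83, adjusted p = 0.325 in edgeR) and 0.52 for Gp5 (SE 0.81, adjusted p = 0.657 in edgeR). By organ, the thymus KO-ITD libraries were above the KO-GFP libraries for Gp1ba, while of the marrow ones replicate 1 was within their range and replicate 2 below it. The KO-ITD records from marrow name Cuffdiff 2.1.1 and those from thymus 2.2.1, so organ and record cannot be told apart.

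Vwf and Treml1 did not pass the threshold, and Nfe2 did. Vwf was at 0.764, 1.48, 0.842 and 7.77 CPM in KO-ITD leukemias, against 0.0639 and 0.203 CPM in KO-GFP thymocytes (log2 fold change 4.19, SE 1.45, adjusted p = 0.0577 in edgeR). Without replicate 4 the log2 fold change of Vwf was 2.88 (adjusted p = 0.12 in edgeR). Treml1 had 10 counts over the 4 KO-ITD libraries and 0 over the KO-GFP libraries, at least 2.77-fold higher (adjusted p = 0.0932 in edgeR). Without KO-ITD replicate 4 it had 4 counts, at least 1.37-fold higher (adjusted p = 0.172 in edgeR). Nfe2 was at 8.4, 29.5, 8.30 and 13.3 CPM in KO-ITD leukemias, against 0.383 and 1.67 CPM in KO-GFP thymocytes, with a log2 fold change of 3.83 (SE 1.13, adjusted p = 0.0334 in edgeR). Every KO-ITD library lay above every KO-GFP library for Nfe2, and replicate 2, not replicate 4, was the highest.

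Counted together, 4 of the 9 genes were called higher in KO-ITD than in KO-GFP libraries and none lower. Over all genes, 19.6% were called, 9.80% higher and 9.85% lower. For 7 of the 9 genes all KO-ITD libraries lay above both KO-GFP libraries, and 22.9% of all genes did so. Of these 7 genes, Ppbp, Gp1bb, Gp9 and Treml1 had only 1 count each in KO-ITD replicate 3. The filter on low counts covered all 17 libraries, knock-in marrow included. From the compared groups alone, 5 of the 9 passed it here, without Gp1bb, Gp5, Gp9 and Treml1. In that fit 0 of the 5 were called. From their own groups alone, 4 passed the filter for WT-ITD against WT-GFP and 2 for KO-GFP against WT-GFP. The median log2 fold change of the 9 was 4.19, or 3.83 with the genes at 0 counts in KO-GFP set at their bound, and it was 0.19 over all genes tested. The medians of the 9 include the genes that did not pass the filter from these groups alone. Without KO-ITD replicate 4, 3 of the 9 were called, Pf4, Gp1bb and Nfe2, and the fitted median was 3.88. Leaving out either KO-GFP replicate left 0 of the 9 called: without replicate 1 the adjusted p in edgeR was 0.195 for Pf4, 0.279 for Nfe2, 0.217 for Gp1bb and 0.309 for Ppbp, and without replicate 2 it was 0.137, 0.0917, 0.15 and 0.146 in that order. Ppbp also missed the threshold without KO-ITD replicate 1 (0.0641) or 2 (0.0615). Over the alternatives tried, Pf4 passed in 9 of 14 (adjusted p from 0.00805 to 0.195), Nfe2 in 9 of 14 (0.000269 to 0.279), Gp1bb in 8 of 11 (0.0046 to 0.217) and Ppbp in 3 of 14 (0.0109 to 0.309). Within the records that name Cuffdiff 2.1.1, which leaves the marrow KO-ITD libraries, Pf4 had a log2 fold change of 4.81 (adjusted p = 0.0307 in edgeR), and among thymus libraries only it was 9.16 (adjusted p = 0.0177 in edgeR). Each of those fits tested 7 of the 9 genes, without Gp1bb and Treml1, and called Pf4 alone. In them Nfe2 had log2 fold changes of 4.19 and 3.43, with adjusted p of 0.0721 and 0.0742 in edgeR.

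**Figure D2:**
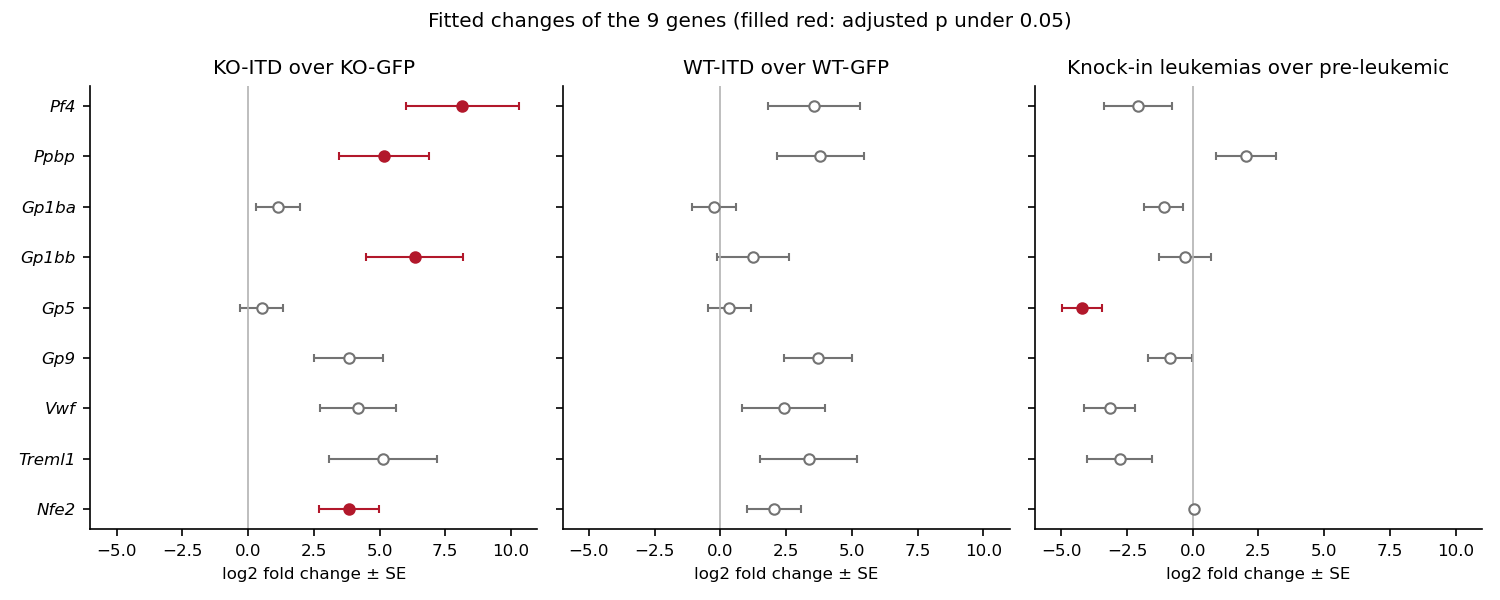
Fitted log2 fold change of each of the 9 genes with its SE in 3 comparisons of the edgeR fit; filled red points passed an adjusted p of 0.05, open grey points did not, and no SE could be given for Nfe2 in the knock-in comparison. Positive values mean higher in the leukemias: 4 genes passed in KO-ITD over KO-GFP, 0 in WT-ITD over WT-GFP and 1, Gp5, in the knock-in leukemias over pre-leukemic marrow. For genes with 0 counts on 1 side the fitted value depends on the prior count.

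With intact Dnmt3a, 0 of the 9 genes passed the test between WT-ITD leukemias and WT-GFP thymocytes, where 2.24% of all genes did (2 of the 9 at an unadjusted p under 0.05 in edgeR, and 0 of the 9 called by DESeq2 and by limma voom). Pf4 was at 2.12, 0.184 and 2.95 CPM in WT-ITD leukemias, against 0.12 and 0.162 CPM in WT-GFP thymocytes. Replicate 2, from marrow, lay near the thymocyte level and the thymus leukemias above it (log2 fold change 3.56, adjusted p = 0.31 in edgeR). Nfe2 was at 19.2, 0.981 and 1.78 CPM in WT-ITD leukemias, against 1.80 and 1.78 CPM in WT-GFP thymocytes, so that only replicate 1 was above the WT-GFP libraries (log2 fold change 2.04, adjusted p = 0.327 in edgeR; without replicate 1 it was -0.44). Ppbp was at 0.295, 0 and 0.859 CPM in WT-ITD leukemias, against 0.04 and 0 CPM in WT-GFP thymocytes. Of the others, Gp9 had the lowest adjusted p of the 9, at 0.155 in edgeR, with 0.591, 0.0613 and 0.43 CPM in WT-ITD leukemias, against 0 and 0.0405 CPM in WT-GFP thymocytes. For 3 of the 9 genes, Pf4, Gp9 and Vwf, all WT-ITD libraries lay above both WT-GFP libraries, as 20.9% of all genes did.

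No difference between KO-ITD and WT-ITD leukemias passed the test for these genes. The log2 fold changes of KO-ITD over WT-ITD lay between 0.01 for Gp5 and 3.93 for Pf4, and 0 of the 9 passed (0.490% of all genes did; 3 of the 9 at an unadjusted p under 0.05 in edgeR, 0 by DESeq2 and 0 by limma voom). For Vwf alone all KO-ITD libraries lay above all WT-ITD libraries, as 4.85% of all genes did. The Pf4 value (SE 1.36, adjusted p = 0.165 in edgeR) was 0.68 without KO-ITD replicate 4 (adjusted p = 0.639 in edgeR). The difference between the FLT3-ITD effects with and without Dnmt3a, the interaction, was not called for any of the 9 (0% of all genes called, 838 of them at an unadjusted p under 0.05 in edgeR, 80 called by DESeq2 and 0 by limma voom). For Pf4 it was 4.59 on the log2 scale (SE 2.53, adjusted p = 0.819 in edgeR), and 1.34 without KO-ITD replicate 4 (SE 1.29, adjusted p = 0.916 in edgeR). The fitted value for Gp1bb, 5.08 (SE 2.34, adjusted p = 0.819 in edgeR), depends on the prior count, since Gp1bb had 0 counts in KO-GFP thymocytes. Between KO-GFP and WT-GFP thymocytes 0 of the 9 passed (0% of all genes, 74 at an unadjusted p under 0.05 in edgeR, 12 called by DESeq2 and 0 by limma voom), at levels of 0 to 1.67 CPM in KO-GFP and 0 to 1.80 CPM in WT-GFP libraries.

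By organ, within the 7 retroviral leukemias and with Dnmt3a genotype as a term, 5 of the 9 genes could be tested and 0 passed (0% of all genes; 1 of the 5 and 1601 of all genes at an unadjusted p under 0.05 in edgeR, and 1 of the 5 called by DESeq2 and 0 by limma voom). Among KO-ITD libraries the marrow records name Cuffdiff 2.1.1 and the thymus records 2.2.1, so organ and record cannot be told apart there. The only marrow WT-ITD library, replicate 2, also differed from the others in donor preparation. Pf4 was at 2.80, 2.42 and 0.184 CPM in the marrow leukemias, against 3.25, 98.7, 2.12 and 2.95 CPM in the thymus leukemias. Its log2 fold change, marrow over thymus, was -4.20 (SE 1.14, adjusted p = 0.37 in edgeR), and -1.90 without KO-ITD replicate 4 (SE 1.13, adjusted p = 0.719 in edgeR). The groups overlapped for Pf4. The log2 fold changes of Vwf, Gp1ba, Ppbp and Nfe2 lay between -1.88 and -0.50, and that of Vwf was -0.55 without KO-ITD replicate 4. For Ppbp and Nfe2 the mean levels ran the other way from the fitted values, at 0.993 ± 1.05 CPM in marrow leukemias against 0.804 ± 0.821 CPM in thymus leukemias for Ppbp, and at 13 ± 14.8 CPM in marrow leukemias against 10.7 ± 7.43 CPM in thymus leukemias for Nfe2 (SD, n = 3 and 4).

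Markers of other cells also differed between the sorted retroviral libraries, some lists along with these genes and others not. The 13 monocyte and macrophage markers summed to 411, 187, 263 and 5502 CPM in KO-ITD replicates 1 to 4, against 88.4 and 106 CPM in KO-GFP libraries. None of the 13 was at 0 throughout either group, and 0 of 13 passed the test (10 at an unadjusted p under 0.05, lowest adjusted p = 0.0511 in edgeR). The 9 stromal markers summed to 191, 104, 557 and 2236 CPM in KO-ITD, against 7.92 and 6.89 CPM in KO-GFP libraries, where Pdgfra was at 0, and 8 of 9 were called higher. The 16 erythroid markers in the table summed to 845, 2071, 1723 and 1440 CPM in KO-ITD, against 147 and 329 CPM in KO-GFP libraries, where Rhag and Car1 were at 0, and 7 of 16 were called higher. In WT-ITD replicate 2, which had the least Pf4 of the leukemias, the monocyte and macrophage sum was 13.1 CPM and the stromal sum 3.49 CPM. In WT-ITD replicate 1, which had the most Nfe2 of its group, the erythroid sum was 1252 CPM, against 463 and 337 CPM in the other WT-ITD libraries. Its monocyte and macrophage sum was 122 CPM, against 127 and 98.6 CPM in WT-GFP libraries. Pf4 was at 2.12 CPM there, against 0.12 and 0.162 CPM in WT-GFP libraries. The endothelial list, of which 3 of 13 genes were called higher, summed to 404 CPM in KO-ITD replicate 4, with Lyve1 at 208 CPM, Cldn5 at 95.3 CPM and Cdh5 at 7.04 CPM, and to 79.1 to 113 CPM in the other KO-ITD libraries, against 153 and 154 CPM in KO-GFP libraries. Of the remaining lists, 1 of 11 neutrophil and 2 of 7 mast cell and basophil genes were called higher in KO-ITD, 1 of 7 stem cell genes lower, and of 10 double-positive T cell genes 1 higher and 5 lower. Without KO-ITD replicate 4, 8 of 9 stromal, 5 of 16 erythroid, 2 of 13 endothelial, 3 of 7 mast cell and basophil and 0 of 11 neutrophil genes were called higher, 0 of 7 stem cell genes were called in either direction, and of the double-positive T cell genes 1 was called higher and 4 lower. Of 48 other megakaryocyte and platelet genes tested, followed further below, 34 had a positive log2 fold change in KO-ITD over KO-GFP and 14 a negative one. Among them the megakaryocyte tubulin Tubb1 was at 0, 1.04, 0.12 and 0.121 CPM in KO-ITD libraries. The part of these cells in the Pf4, Ppbp, Gp1bb and Nfe2 results was not tested.

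**Figure D3:**
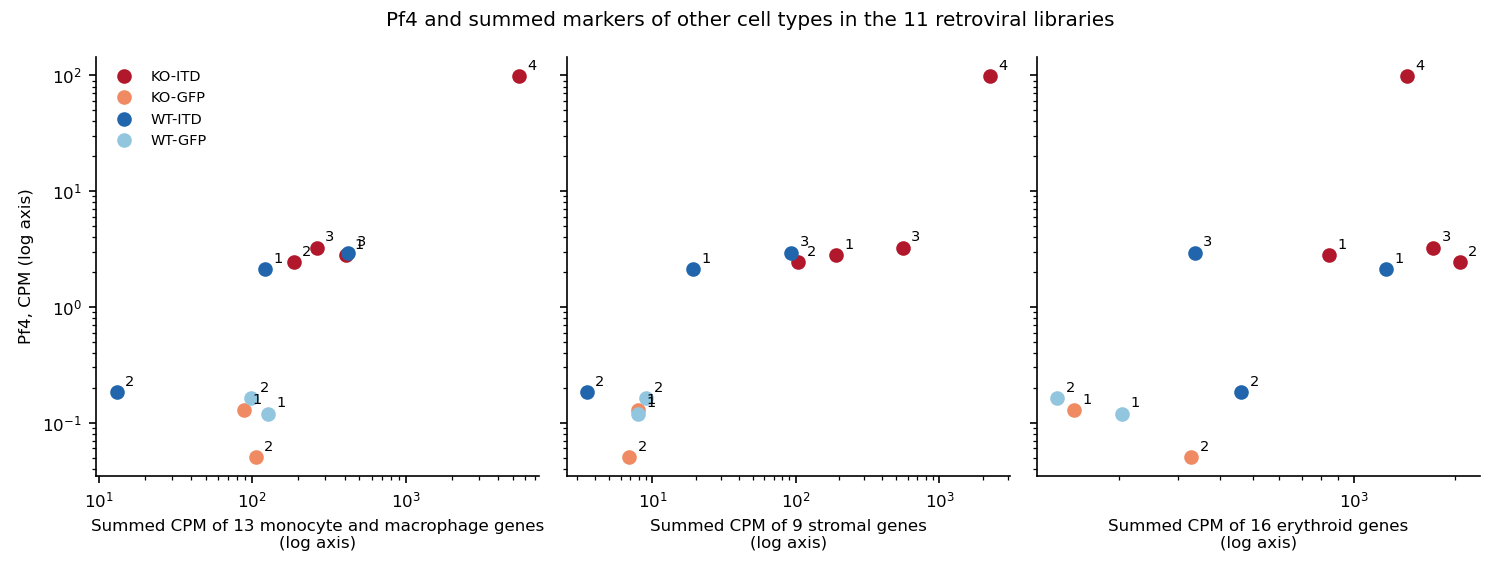
Pf4 in CPM against the summed CPM of 3 marker lists (log axes) in the 11 retroviral libraries; each point is a library and the number beside it its replicate. KO-ITD replicate 4 is at the top right for the monocyte, macrophage and stromal lists, with sums of 5502 and 2236 CPM, but not for the erythroid list, where KO-ITD replicate 2 has the highest sum at 2071 CPM.

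In the knock-in model, Gp5 was lower in the leukemias than in pre-leukemic marrow. All leukemias were ER-cre+ and all pre-leukemic marrow was ER-cre-. Leukemia, Cre and Dnmt3a deletion therefore cannot be told apart in any comparison between them. Gp5 was at 7.45 CPM in the f/f leukemia and 0.321 and 0.644 CPM in the f/+ leukemias, against 11.2, 19.6 and 36.1 CPM in pre-leukemic marrow. Every leukemia was below every pre-leukemic library (log2 fold change -4.21, SE 0.77, adjusted p = 0.00978 in edgeR). The call held in 12 of 12 alternatives, with adjusted p from 1.42e-07 to 0.0419. Gp5 was the only one of the 9 called, where 9.38% of all genes were called, 4.09% lower and 5.29% higher. For the f/+ leukemias alone the log2 fold change was -5.52 (SE 0.99, adjusted p = 0.0154 in edgeR; 1.57% of all genes called lower), and it missed the threshold without f/+ replicate 2 (0.0598) or pre-leukemic replicate 2 (0.0546). For the f/f leukemia alone it was -1.58 (adjusted p = 0.418 in edgeR), with 1 library assumed to vary like the others.

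Vwf and Pf4 were also below every pre-leukemic library in every knock-in leukemia, but did not pass the test. Vwf was at 22.4 CPM in the f/f leukemia and 29.0 and 5.87 CPM in the f/+ leukemias, against 161, 309 and 40.2 CPM in pre-leukemic marrow (log2 fold change -3.16, SE 0.98, adjusted p = 0.0597 in edgeR). It passed in 4 of 12 alternatives, with adjusted p from 0.00973 to 0.222. Pf4 was at 15.8 CPM in the f/f leukemia and 3.66 and 3.79 CPM in the f/+ leukemias, against 21.7, 20 and 34.8 CPM in pre-leukemic marrow (log2 fold change -2.08, SE 1.28, adjusted p = 0.312 in edgeR). For 3 of the 9 genes all leukemias lay below all pre-leukemic libraries, as 15.9% of all genes did. Treml1 was at 3.27 CPM in the f/f leukemia and 0 and 0.429 CPM in the f/+ leukemias, against 1.78, 2.64 and 6.60 CPM in pre-leukemic marrow (adjusted p = 0.168 in edgeR).

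The other subunits of the receptor complex did not follow Gp5 in every library. Gp9 was at 3.06 CPM in the f/f leukemia and 10.8 and 2.36 CPM in the f/+ leukemias, against 6.76, 11.3 and 9.87 CPM in pre-leukemic marrow. In f/+ replicate 1 Gp9 was thus within the pre-leukemic range while Gp5 was at 0.321 CPM, Gp1bb at 0.705 CPM and Treml1 at 0. Gp1ba was at 9.81 CPM in the f/f leukemia and 4.17 and 5.72 CPM in the f/+ leukemias, against 8.53, 16.4 and 15.2 CPM in pre-leukemic marrow. The log2 fold changes over all 3 leukemias were -0.87 for Gp9 (SE 0.84) and -1.11 for Gp1ba (SE 0.74), with adjusted p of 0.54 and 0.35 in edgeR. Nfe2 was at 255 CPM in the f/f leukemia and 223 and 299 CPM in the f/+ leukemias, against 233, 294 and 218 CPM in pre-leukemic marrow. Its groups overlapped, with a log2 fold change of 0.06 (adjusted p = 0.991 in edgeR).

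The f/f leukemia had the highest Ppbp and Gp1bb values of the 6 knock-in libraries, but neither passed the test. Ppbp was at 39.9 CPM there and at 0.321 and 1.93 CPM in the f/+ leukemias, against 0.889, 0.754 and 1.02 CPM in pre-leukemic marrow. The log2 fold change of the f/f leukemia over pre-leukemic marrow was 5.46 (SE 1.43) and missed the threshold at an adjusted p of 0.0578 in edgeR, where 3.01% of all genes were called. DESeq2, limma voom and a fit of the groups compared only put it past the threshold, and without 1 pre-leukemic replicate at a time the adjusted p in edgeR was 0.148 to 0.173. Ppbp and Pf4 are neighbours, but the ratio of Pf4 to Ppbp counts was 0.395 in the f/f leukemia and 11.4 and 1.96 in the f/+ leukemias, against 24.4, 26.5 and 34.1 in pre-leukemic marrow. Gp1bb was at 10 CPM in the f/f leukemia and 0.705 and 2.65 CPM in the f/+ leukemias, against 2.49, 4.90 and 3.75 CPM in pre-leukemic marrow (f/f over pre-leukemic log2 fold change 1.43, SE 1.29, adjusted p = 0.562 in edgeR).

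Sept5 moved in these libraries and bears on how Gp1bb is read. Sept5 was at 113 CPM in the f/f leukemia and 7.50 and 265 CPM in the f/+ leukemias, against 1.78, 4.71 and 1.36 CPM in pre-leukemic marrow, and it rose over all leukemias (log2 fold change 5.66, SE 1.22, adjusted p = 0.0168 in edgeR). In f/+ replicate 2, where Sept5 was highest, Gp1bb was at 2.65 CPM, within the pre-leukemic range. In the f/f leukemia 62.22 of the 187.41 estimated Gp1bb fragments were given to the transcript NM_001001999 and 125.19 to NM_010327. NM_001001999 was given 0 of 11.22 fragments in f/+ replicate 1 and 20.59 of 36.84 in f/+ replicate 2. In pre-leukemic replicates 1 to 3 it was given 4.18 of 13.7, 4.22 of 25.82 and 8.28 of 88.12. The share of Gp1bb fragments that fall in the bases common to Sept5 was not tested.

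Within pre-leukemic marrow the 9 genes split into different patterns. Replicate 3 had the least Vwf, 40.2 CPM, but the most Gp5, Pf4 and Treml1, and its ratio of Vwf to Gp5 counts was 1.11, against 14.3 and 15.8 in replicates 1 and 2. Markers of other cells differed in the same libraries. The erythroid markers summed to 950.2 CPM in replicate 3 and to 289.8 and 305 CPM in replicates 1 and 2. The stem cell markers summed to 834 CPM in replicate 3 and to 1149 and 1363 CPM in the others, with Fgd5 at 3.19, 30.2 and 63.7 CPM in that order. The endothelial list summed to 378 CPM in replicate 3 and to 447 and 721 CPM in the others. Of its 13 genes, 10 had a negative log2 fold change in the leukemias and 3 a positive one (median -2.17). Against GFP thymocytes, 9 of the 13 were called higher in pre-leukemic marrow, as 22.7% of all genes were. Cdh5 of this list was at 0.533, 0.189 and 0.255 CPM in pre-leukemic marrow. It was at 9.22 CPM in the f/f leukemia and 1.60 and 1.36 CPM in the f/+ leukemias. The monocyte and macrophage sum was 2090 CPM in the f/f leukemia and 571 and 1640 CPM in the f/+ leukemias, against 172 to 326 CPM in pre-leukemic marrow. The neutrophil sum was 15720 CPM in the f/f leukemia and 3774 and 19993 CPM in the f/+ leukemias, against 3038 to 4695 CPM in pre-leukemic marrow. Between the leukemias and pre-leukemic marrow 3 of 11 neutrophil, 3 of 16 erythroid and 1 of 9 stromal genes were called higher, 3 of 7 stem cell and 1 of 13 endothelial genes lower, and 0 of 13 monocyte and macrophage genes passed (4 at an unadjusted p under 0.05 in edgeR). The mast cell and basophil sum was 69.6 to 327 CPM in the leukemias and 841 to 1064 CPM in pre-leukemic marrow. All 7 genes of that list had a negative log2 fold change (median -2.02), and 0 of 7 passed. Of 10 double-positive T cell genes, 4 were called higher and 2 lower. The part of cell makeup in the Gp5, Vwf and Ppbp values was not tested.

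**Figure D4:**
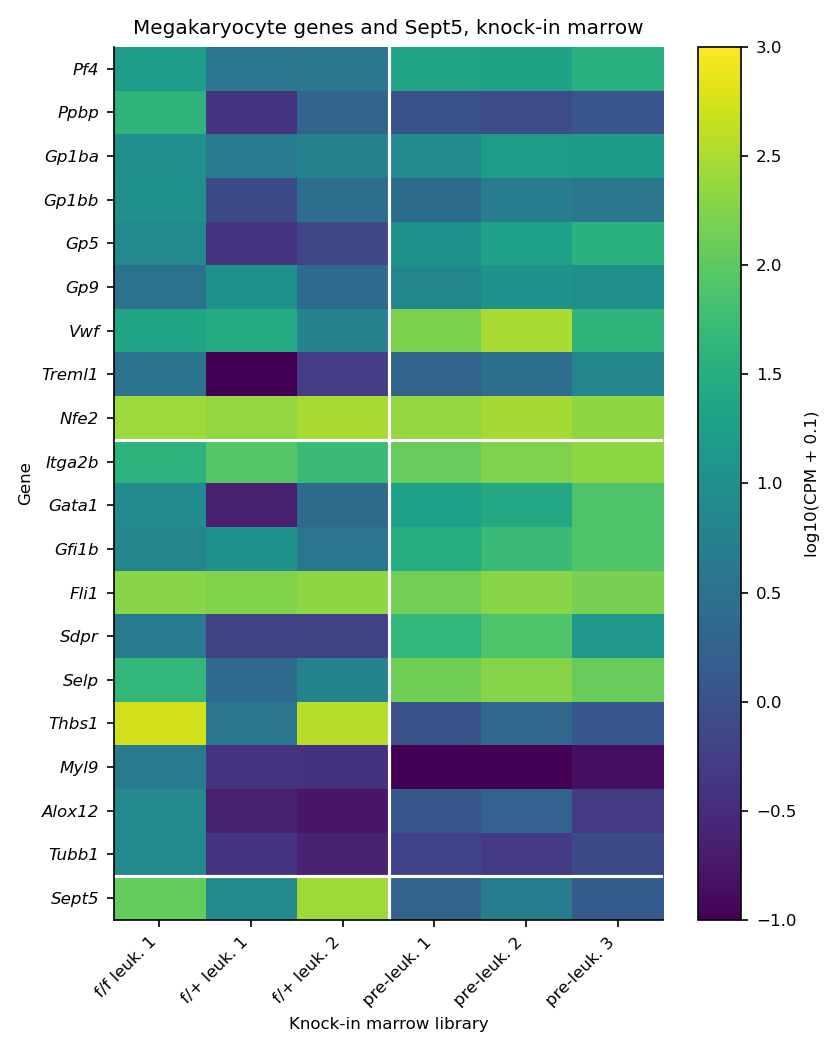
Levels, as log10(CPM + 0.1), of the 9 genes (top block), other named megakaryocyte genes (middle block) and Sept5 (bottom row) in the 6 knock-in marrow libraries, with leukemias left and pre-leukemic marrow right of the white line. The rows of Ppbp and Tubb1 are brightest in the f/f leukemia, at 39.9 and 7.83 CPM, and the row of Vwf is brightest in pre-leukemic marrow, at 161, 309 and 40.2 CPM.

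The wider programme was followed with 50 other megakaryocyte and platelet genes, of which 48 were tested. Between KO-ITD and KO-GFP libraries 8 were called higher, 4 lower and 36 did not pass, where 9.80% of all genes were called higher and 9.85% lower. Without KO-ITD replicate 4, 5 were called higher and 4 lower, with a median log2 fold change of 0.82. Their median log2 fold change was 1.86 (1.46 with genes at 0 counts on 1 side set at their bound), against 0.19 over all genes. Clu (clusterin, an alpha granule protein) had a log2 fold change of 8.85 (SE 2.81, adjusted p = 0.0433 in edgeR) and Rab27b (a small GTPase of granule release) of 7.05 (SE 2.19, adjusted p = 0.0399 in edgeR). Clu was at 226 CPM in KO-ITD replicate 4, and at 3.44, 1.92 and 38.7 CPM in replicates 1 to 3. Rab27b was at 97.3 CPM in replicate 3, and at 3.18, 1.32 and 1.70 CPM in replicates 1, 2 and 4. Without replicate 3 the log2 fold change of Rab27b was 3.41 (adjusted p = 0.0552 in edgeR), and Clu missed the threshold without replicate 3 (0.0538) or 4 (0.0603). Tal1, a transcription factor shared by erythroid cells and megakaryocytes, gave a count ratio of 514 (142 to 4251; adjusted p = 0.0413 in edgeR). Tal1 missed it without KO-ITD replicate 1 (0.053) or 2 (0.0528). Myl9, the myosin light chain of proplatelet formation and of smooth muscle, was at least 24.6-fold higher (adjusted p = 0.0259 in edgeR). Without either KO-GFP replicate none of Clu, Rab27b, Tal1 and Myl9 passed, with adjusted p of 0.112 to 0.289. Gata1 rose with a log2 fold change of 4.66 (SE 1.26, adjusted p = 0.0237 in edgeR), while Itga2b, Gfi1b, Fli1 and Tubb1 did not pass. Its value without a KO-GFP replicate is not given here. In the same comparison 7 of 16 erythroid genes were called higher. The part of erythroid cells in the Gata1 result was not tested. Of the 48, the 4 called lower were Nbeal2, Plcb2, Rasgrp2 and Tln1, with log2 fold changes from -1.61 to -1.02. Between WT-ITD and WT-GFP libraries 0 of the 48 passed (10 at an unadjusted p under 0.05 in edgeR), with a median of 0.25 against 0.03 over all genes.

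In the knock-in leukemias 9 of the 48 were called lower than in pre-leukemic marrow, 1 higher and 38 did not pass, where 4.09% of all genes were called lower and 5.29% higher. The median log2 fold change was -0.48, against 0.00 over all genes. Sdpr, which encodes a caveolar protein found in platelets, had a log2 fold change of -5.43 (SE 1.29, adjusted p = 0.026 in edgeR), and Gata1 of -4.15 (SE 1.04, adjusted p = 0.029 in edgeR). Selp, Tbxa2r, Zfpm1, Runx1, Meis1 and Dapp1 were also called lower. Thbs1 (thrombospondin-1, an alpha granule protein also made by monocytes) was the gene that rose, with 539 CPM in the f/f leukemia and 3.85 and 367 CPM in the f/+ leukemias, against 0.889, 2.07 and 1.11 CPM in pre-leukemic marrow (log2 fold change 7.65, SE 1.90, adjusted p = 0.0282 in edgeR). Itga2b and Gfi1b did not pass, with log2 fold changes of -1.52 (SE 0.68) and -2.94 (SE 1.07), and Fli1 had 0.24 (SE 0.21). Single libraries decided these calls: Gata1 missed the threshold without f/+ replicate 1 or any 1 pre-leukemic replicate (adjusted p from 0.0511 to 0.104 in edgeR), and Sdpr without either f/+ replicate or pre-leukemic replicate 1 or 2 (0.0554 to 0.0944). Thbs1 missed it without the f/f leukemia, f/+ replicate 2 or any 1 pre-leukemic replicate (0.0501 to 0.102).

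The f/f leukemia was the highest of the 17 libraries for 14 of the 50 genes as well as for Ppbp and Gp1bb, and it was the highest for 8.27% of all genes tested. The 14 include genes read in many cell types, such as Tln1, Thbs1 and Tpm4, and genes of late megakaryocytes and platelets. Tubb1 was at 7.83 CPM there and at 0.321 and 0.143 CPM in the f/+ leukemias, against 0.533, 0.377 and 0.681 CPM in pre-leukemic marrow (f/f over pre-leukemic log2 fold change 3.83, SE 1.36, adjusted p = 0.143 in edgeR). Alox12, the platelet lipoxygenase, was at 7.40 CPM there and at 0.128 and 0.0716 CPM in the f/+ leukemias, against 1.07, 1.70 and 0.383 CPM in pre-leukemic marrow (adjusted p = 0.198 in edgeR). Pre-leukemic replicate 2 was the highest library for 13 of the 50 (7.38% of all genes tested), among them Selp, Mmrn1, Tal1 and Meis1. The f/f leukemia is 1 library, neither Tubb1 nor Alox12 passed the test there, and Alox12 was chosen after its values were seen.

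Genes whose log2 CPM most resembled the mean pattern of the 9 over all 17 libraries were Wdfy3, Fnip2, Clca1, Tbxas1, S1pr3, Plek, Lmo2 and Gypc, with Pearson r from 0.945 to 0.966. The libraries share a contrast between marrow and sorted thymocytes, which any such r contains. Over the 11 retroviral libraries the closest were Prune2, Crip2, Col11a1, Gda, Ppap2a, Rab3il1, Clec4a2 and Ctsf, with r from 0.967 to 0.988. Of the 9 genes themselves, Vwf, Pf4 and Gp1bb followed the mean most closely in the retroviral libraries (r of 0.971, 0.957 and 0.950), and Gp5 and Gp1ba least (r of 0.558 and 0.295). Without KO-ITD replicate 4 the 8 genes named for these libraries had r from 0.938 to 0.992, and Gp5 and Gp1ba had r of 0.388 and -0.164.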

How the data were processed

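RNA-seq was deposited for 19 samples, which make 17 libraries in 7 groups, since each WT-GFP replicate was run as a pair of technical samples that share 1 column. TopHat2 2.0.10 with mm9 made the alignments, per the submitters' processing notes, followed by Cufflinks 2.1.1 (version not given for later records) and Cuffdiff 2.1.1 or 2.2.1. How fragments were counted, the strand setting and filters were not given in the sources used here. The deposited values are estimated counts per gene, of which 98.12 to 98.54% per library were whole within 0.001, and they were rounded. The deposited FPKM files were not used. Library totals were 4933886 to 25331906, and intervals and floors cover counting error only.

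One edgeR 4.0.16 quasi-likelihood fit (R 4.3.3) covered all libraries, with TMM factors of 0.943 to 1.076, edgeR's filter leaving 15508 genes, and Benjamini-Hochberg adjustment over them at a threshold of 0.05. Marrow and thymus leukemias were compared in a fit of 12622 genes with genotype as a term. No SE is given where the F statistic was near 0. Against 0 counts a fold is a bound from a floor of 3 counts over the group, and against 1 to 3 counts a count ratio has an exact 95% interval. Tested on simulated data, the KO-ITD against KO-GFP comparison recovered 59% of genes changed 4-fold and 92% of those changed 16-fold. The changed genes were drawn from genes with a mean over 1 CPM. In KO-GFP libraries the means of Pf4, Ppbp, Gp1bb, Gp9 and Treml1 were 0 to 0.0892 CPM, and the rates do not cover such levels. Alternatives were RLE scaling, DESeq2 1.42.0, limma 3.58.1 voom, no filter, a replicate block, smaller sets of libraries and leaving out each library. List counts, list medians and pattern correlations without KO-ITD replicate 4 were added after seeing the data. Named beside the 9 genes are, per comparison, up to 4 called genes with the largest change from the 50 of the wider list, with Itga2b, Gata1, Gfi1b, Fli1 and Tubb1, and the 8 genes of most similar pattern. Some values of the wider list are not reported here. The genes and lists were chosen with earlier results of these data known.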

Additional observations from a re-analysis of the deposited data

Results flagged for a closer look

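Pf4 was at 98.7 CPM in KO-ITD replicate 4 and at 2.42 to 3.25 CPM in the other KO-ITD libraries, a sample far from the rest of its group. Vwf was at 7.77 CPM in the same library and at 0.764 to 1.48 CPM in the others. Of 9 groups of values tested in this way, 2 stood out, and chance gives about 1 in 20.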

How the results depend on the processing

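Of 898 log2 fold changes of single genes under alternatives, 780 kept direction and side of the threshold, 69 no longer passed, 20 newly passed and 29 changed sign. The cause of these changes was not tested. In KO-ITD against KO-GFP, 4 of the 9 genes were called. It was 2 by limma voom, 2 with the replicate block and 0 to 5 with 1 library left out. Smaller sets of libraries tested fewer of the 9. With the groups compared only, 0 of 5 were called. It was 1 of 7 in records naming Cuffdiff 2.1.1 and 1 of 7 among thymus libraries. In the knock-in leukemias against pre-leukemic marrow, 1 was called, and 2 by DESeq2, 3 by limma voom, 2 with the replicate block, 2 with the groups compared only and 1 to 2 with 1 library left out. For the f/+ leukemias 1 was called, and 2 by DESeq2, 2 by limma voom, 2 with the groups compared only and 0 to 1 with 1 library left out. For the f/f leukemia 0 were called, and 1 by each of DESeq2, limma voom and the groups compared only. Between marrow and thymus 0 were called, and 1 by DESeq2.

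Signs turned as follows, as log2 fold changes. In records naming Cuffdiff 2.1.1, Gp1ba was -0.56 in KO-ITD against KO-GFP and -0.49 in KO-ITD against WT-ITD. In KO-ITD against WT-ITD, Gp5 was -0.03 without a filter, -0.33 with the replicate block and -0.26 among thymus libraries, where Gp9 was -0.44. With the replicate block Nfe2 was -0.38 in each knock-in comparison and Treml1 was 0.47 in the f/f leukemia, and by limma voom Ppbp was -0.23 in the f/+ leukemias. With 1 library left out, WT-ITD against WT-GFP gave -0.61 to 0.08 for Gp1ba, -0.37 to 3.77 for Gp1bb, -0.37 to 1.38 for Gp5 and -0.44 to 2.55 for Nfe2. KO-ITD against WT-ITD gave -0.29 to 0.67 for Gp5 and -0.04 to 1.00 for Gp9. The knock-in leukemias gave -1.14 to 0.47 for Gp1bb and -0.06 to 0.20 for Nfe2, the f/+ leukemias -1.46 to 1.10 for Ppbp, -1.98 to 0.21 for Gp9 and -0.15 to 0.27 for Nfe2, and the f/f leukemia -0.51 to 0.61 for Treml1 and -0.01 to 0.18 for Nfe2.

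Counts over all genes moved by over 1.5 times in these cases. KO-ITD against KO-GFP had 3047 calls, 5015 by DESeq2, 439 with the groups compared only and 147 to 3949 with 1 library left out. WT-ITD against WT-GFP had 347, with 1425 by DESeq2, 876 by limma voom, 567 with the replicate block, 904 with the groups compared only, 1268 in records naming Cuffdiff 2.1.1 and 23 to 608 with 1 library left out. KO-ITD against WT-ITD had 76, with 1288 by DESeq2, 185 by limma voom, 0 with the groups compared only, 246 in records naming Cuffdiff 2.1.1 and 10 to 637 with 1 library left out. The interaction had 0, with 80 by DESeq2, 13 in records naming Cuffdiff 2.1.1 and 0 to 39 with 1 library left out. The knock-in leukemias had 1455, with 2973 by DESeq2, 624 with the groups compared only and 228 to 2323 with 1 library left out. The f/+ leukemias had 775, with 2383 by DESeq2, 157 with the groups compared only and 38 to 1239 with 1 library left out. The f/f leukemia had 467, with 1819 by DESeq2, 881 by limma voom, 3676 with the groups compared only and 36 to 133 with 1 library left out. Marrow against thymus had 0, with 657 by DESeq2.

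Libraries with the same replicate number in different groups had correlations of their deviations from -0.287 to 0.369. For KO-ITD and WT-ITD they were 0.159, 0.369 and 0.0817, not all over 0.1, and KO-ITD replicate 1 correlated more with WT-ITD replicate 2 (0.232), so the numbers were not taken as pairs, and shared handling was not tested. With the replicate block that comparison had 0 of the 9 and 76 genes called. In KO-GFP against WT-GFP, a replicate block on the 4 GFP libraries, chosen after seeing the data, gave 5 calls over all genes and a crossed pairing 356. The f/f leukemia could not be left out of its own comparison, and the knock-in groups have neither thymus libraries nor records naming Cuffdiff 2.1.1. At 4933886 to 25331906 fragments, Treml1, Gp1bb, Gp9 and Ppbp rest on 0 to 2 counts over both libraries of a GFP group, and their folds are bounds or wide ratios.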
